A study of Homo sapiens with 12 samples.

Results

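The genes that encode the aminoacyl-tRNA synthetases, the enzymes that attach each amino acid to its transfer RNA, were followed in an established line of human breast cancer cells, CAMA-1, that expresses the oestrogen receptor (ER). The 35 genes were taken by their symbols from the 60612 named rows of a table of read counts; 19 encode enzymes of the cytosol and 16 encode enzymes of the mitochondrion, whose symbols end in 2. All 35 were in the table and 34 were among the 11803 genes tested. The cells, of wild-type genotype and a single line, were given vehicle (DMSO), 100 nM of the CDK4/6 inhibitor abemaciclib, 5 nM of fulvestrant, which degrades the ER, or a combination of these drugs, for which the labels repeat no dose. The 100 nM is the labelled dose, while the methods of the study name a higher abemaciclib dose unless otherwise noted. For RNA sequencing of cell lines given these drugs, the study states 5 days of treatment. Each group held 3 biological replicates, and transcripts were measured by 3′ RNA sequencing, which reads 1 tag near the end of a polyadenylated RNA.

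Protein synthesis in a human cell runs in 2 compartments, and both need charged transfer RNAs. Most cytosolic synthetases have a separate mitochondrial counterpart, encoded in the nucleus and imported, that serves the few proteins made from the mitochondrial genome. GARS1 and KARS1 each supply both compartments from 1 gene and were counted here as cytosolic, EPRS1 carries the glutamyl and the prolyl enzyme in 1 protein, and QARS1 has no mitochondrial counterpart because mitochondria make glutaminyl-tRNA by an amidation reaction. Several cytosolic enzymes sit in a large multi-synthetase complex held together by the scaffold proteins AIMP1, AIMP2 and EEF1E1. Many cytosolic synthetase genes are known targets of ATF4, the transcription factor of the amino acid response, which binds the C/EBP-ATF response element (CARE).

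The CARE letters, searched on both strands as TGATGNAA, were present in the promoter windows (250 bases before to 50 after the start site, RefSeq on GRCh38.p14) of 7 of the 16 cytosolic genes with such a window, AARS1, CARS1, GARS1, IARS1, MARS1, NARS1 and TARS1. They were present in 1 of the 14 mitochondrial ones, YARS2, and in 3.62% of all 35116 windows. A window was found for 30 of the 35 genes; AARS2, LARS1, VARS1, VARS2 and YARS1 had none. The 60 bases around the match are shown for the 4 genes whose match lies wholly upstream of the start site, read along the strand of each gene, with the CARE letters or their reverse complement in capitals, to show the letters in their context.
GARS1 (chr7:30594818-30594877, plus strand, match begins at -33 from the start site): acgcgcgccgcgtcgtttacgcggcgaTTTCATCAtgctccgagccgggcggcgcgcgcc
IARS1 (chr9:92293698-92293757, minus strand, match begins at -13): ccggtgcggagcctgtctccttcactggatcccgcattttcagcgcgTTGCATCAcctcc
AARS1 (chr16:70289660-70289719, minus strand, match begins at -187): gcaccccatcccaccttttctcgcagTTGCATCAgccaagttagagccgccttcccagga
YARS2 (chr12:32756061-32756120, minus strand, match begins at -197): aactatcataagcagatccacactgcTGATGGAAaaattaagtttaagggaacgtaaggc

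The other motifs searched were each found in fewer of the 30 genes. The MYC-type E-box CACGTG was found in 1 cytosolic gene, IARS1, and in 3 mitochondrial genes, CARS2, EARS2 and MARS2, against 7.26% of all windows. The letters GCGCATGC, bound by the nuclear respiratory factor NRF1, were found in no cytosolic gene and in MARS2 and YARS2, against 3.05%. Of the E2F forms searched, TTTCCCGC was found in TARS1 and RARS2, against 1.63%, and TTTGGCGC in none of the 30 genes, against 0.652%. For these motifs and for the CARE letters, a gene was counted if any of its windows held a match. Some genes had more than 1 window, EARS2 and TARS1 among them, and so more places for a match. The percentages count single windows, so they are not in the same unit as the gene counts. These matches describe letters in promoter windows and not bound sites.

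HARS1 and HARS2 encode the histidyl enzymes of the cytosol and the mitochondrion. HARS1 (chr5:140673035-140691537, minus strand) and HARS2 (chr5:140691430-140699305, plus strand) lie head to head on chromosome 5, overlapping by 108 bases at their 5′ ends in GENCODE v44. Their RefSeq start sites bound the following 84 bases, shown whole because the 2 genes are compared as a pair below.
HARS1 to HARS2 (GRCh38.p14, chr5:140691371-140691454, plus strand): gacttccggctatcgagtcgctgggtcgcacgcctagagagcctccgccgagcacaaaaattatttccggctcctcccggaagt

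Total counts ranged from 3299119 to 5164667 per library, and the 35 genes took 0.245 to 0.359% of them. Levels are given as CPM, counts per 1000000 reads, on library sizes corrected by the trimmed mean of M values (TMM). Since a 3′ tag is counted once per transcript, CPM values were compared between genes without dividing by length. All 12 libraries correlated best with a library of their own group. The 8 luminal epithelial markers checked, ESR1 and GATA3 among them, were expressed in every library (lowest, ESR1 at 76.3 CPM). Of 10 markers of leukocytes, fibroblasts, endothelium and basal epithelium, 6 had 0 counts, 3 (KRT14, KRT5 and PTPRC) stayed under 1 CPM, and COL1A1, a fibroblast collagen, lay at 14.2 to 25.9 CPM. Reads from the mitochondrial genome took 12.3% ± 0.295 (SD, n = 3) of counts with DMSO, 17.9% ± 0.59 with abemaciclib, 18.5% ± 1.8 with fulvestrant and 17.0% ± 1.93 with the combination.

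Cytosolic synthetase transcripts were several times more abundant than mitochondrial ones. With DMSO the 19 cytosolic genes summed to 2936 ± 117 CPM (SD, n = 3) and the 16 mitochondrial genes to 446 ± 12.9. SARS1, for serine, was the most abundant at 326 ± 16.8 CPM, followed by EPRS1 at 299 ± 41.2, KARS1, for lysine, at 288 ± 20.2, NARS1, for asparagine, at 249 ± 8.33 and TARS1, for threonine, at 233 ± 8.27. SARS1 and EPRS1 overlapped over their DMSO libraries, as did EPRS1 and KARS1, while the DMSO libraries of KARS1 and NARS1, and of NARS1 and TARS1, did not. The least abundant cytosolic genes were HARS1 at 42.9 ± 2.38 CPM, WARS1, for tryptophan, at 45.4 ± 3.44 and IARS1, for isoleucine, at 49.4 ± 8.26, and these 3 did not differ beyond their spread.

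Among the mitochondrial genes IARS2 led with 88.2 ± 1.03 CPM, followed by TARS2 at 70.3 ± 9.99 and HARS2 at 51.0 ± 5.42. At the bottom, PARS2 (6.86 ± 1.95 CPM), MARS2 (6.30 ± 1.27) and NARS2 (3.51 ± 0.962) rested on 89, 84 and 49 counts over the 3 DMSO libraries, so that small changes in them were not detectable at this depth. VARS2, for valine (chr6:30914205-30926459, plus strand), had 0 counts in all 12 libraries, which allows up to 0.570 to 0.890 CPM per library (3 counts, counting error only). Its close neighbour GTF2H4, 99 bases away, also had 0 counts, while DDR1, 14049 bases away, had 41395 over all libraries. A long non-coding RNA, ENSG00000288473, overlaps 400 of the last 500 bases of VARS2 on the same strand in GENCODE v44, and its part in the count of 0 was not tested.

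Pairs of a cytosolic and a mitochondrial gene for the same amino acid were compared in each library, leaving out VARS1 and VARS2 since VARS2 had no counts (VARS1 lay at 63.7 to 101 CPM). Some genes entered more than 1 pair: EPRS1 was set against both EARS2 and PARS2, and FARS2 against both FARSA and FARSB. In 14 of the 16 pairs compared the cytosolic gene was higher in all 12 libraries. The ratio was widest for NARS1 over NARS2, at 74.6 ± 21.2 (SD, n = 3) with DMSO, and was 35.1 ± 2.98 for SARS1 over SARS2. In the other 2 pairs the mitochondrial gene was higher in all 12 libraries: IARS1 over IARS2 was 0.56 ± 0.0919 and HARS1 over HARS2 was 0.846 ± 0.103 with DMSO. Counts of HARS1 carry a limit here, since WDR55 overlaps all of its last 500 bases on the opposite strand and DND1 overlaps 134 of them on the same strand, and the sources do not say whether reads were counted by strand.

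**Figure D1:**
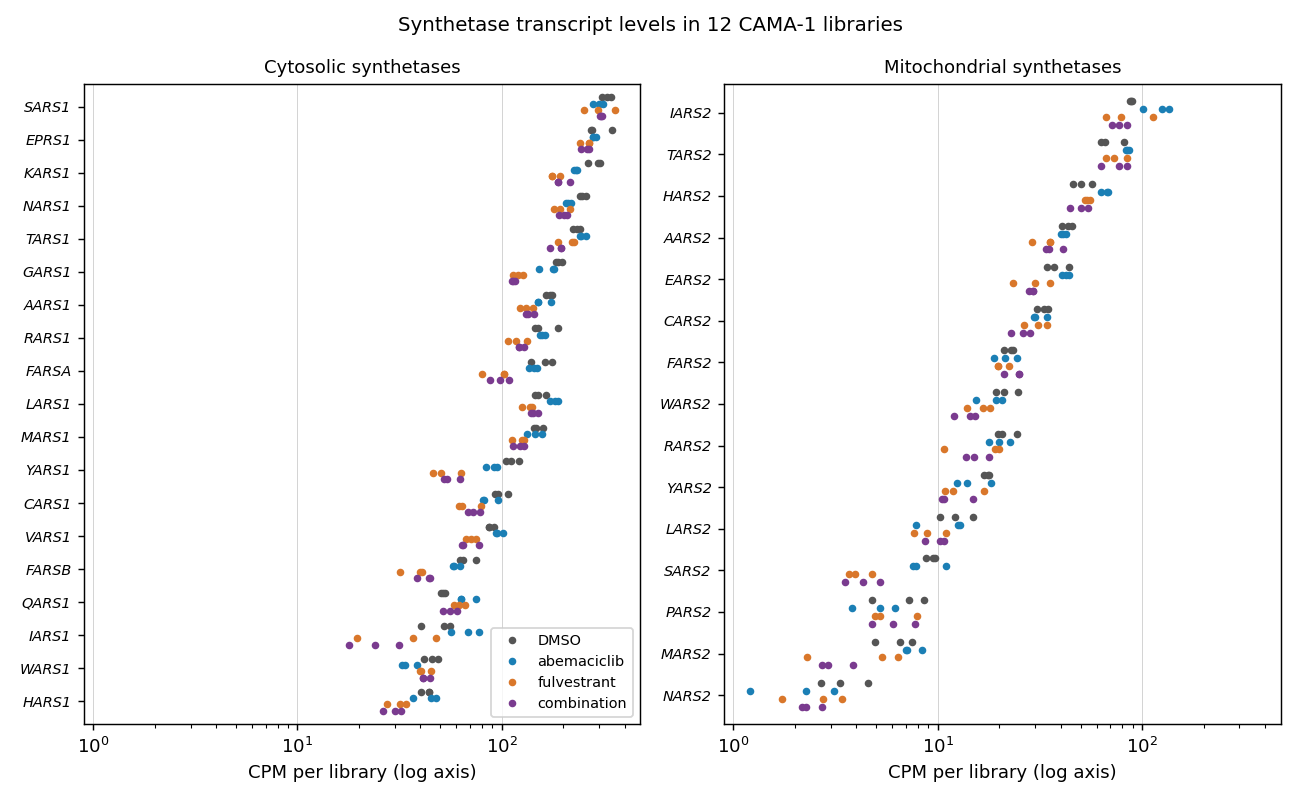
Level of each tested synthetase gene in each library, with CPM on a log axis and 1 point per library coloured by treatment; cytosolic genes are on the left and mitochondrial genes on the right, ordered by their DMSO mean. Cytosolic genes lie between 17.9 CPM (IARS1, combination) and 358 CPM (SARS1, fulvestrant), while the mitochondrial genes reach down to 1.20 CPM (NARS2, abemaciclib).

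The first comparison asked how CDK4/6 inhibition alone changed these genes. Abemaciclib moved 8 of the 34 tested members (23.5%), 4 up and 4 down, by edgeR's quasi-likelihood test with Benjamini-Hochberg adjustment over all genes. This was below the background of all genes tested, of which 41.2% were called, 20.5% higher and 20.7% lower. The cytosolic class had 2 members higher, 4 lower and 13 not called (median log2 fold change -0.11), the mitochondrial class 2 higher, 0 lower and 13 not called (median -0.07), beside a median of 0.00 over all genes. The mitochondrial median was -0.0309 without DMSO replicate 1, -0.0388 and -0.0452 without abemaciclib replicate 1 and replicate 2, and -0.1235 without DMSO replicate 2. Since CPM are shares of a library, fewer transcripts per cell and fewer expressing cells cannot be told apart.

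Among the cytosolic enzymes that rose, QARS1, for glutamine, read 52.8, 50.6 and 51.7 CPM with DMSO, 63.2, 74.8 and 62.9 with abemaciclib, 61.5, 58.7 and 66.3 with fulvestrant and 55.8, 51.3 and 60.4 with the combination. All 3 abemaciclib libraries were above all 3 DMSO libraries, a rise of 0.38 ± 0.10 (SE), adjusted p = 0.00486 on the log2 scale. LARS1, the leucyl enzyme and a leucine sensor of the mTORC1 pathway, read 165, 145 and 149.7 CPM with DMSO, 172, 183 and 189 with abemaciclib, 137, 126 and 141 with fulvestrant and 150.4, 142 and 139 with the combination. It was higher in every abemaciclib library than in every DMSO library (0.25 ± 0.08 (SE), adjusted p = 0.015).

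Those that fell were WARS1, KARS1, YARS1 and NARS1. KARS1 read 301, 297 and 265 CPM with DMSO, 233, 225 and 231 with abemaciclib, 175, 176 and 192 with fulvestrant and 216, 189 and 189 with the combination. The abemaciclib libraries all lay under the DMSO libraries (-0.32 ± 0.08 (SE), adjusted p = 0.00177), a level 1.25-fold lower, and the fulvestrant libraries lay lower again. WARS1, known also as an interferon-induced gene, read 48.7, 41.8 and 45.7 CPM with DMSO, 38.6, 33.6 and 32.3 with abemaciclib, 40.3, 39.8 and 45.1 with fulvestrant and 41.1, 41.4 and 44.5 with the combination. Its decrease with abemaciclib was -0.37 ± 0.12 (SE), adjusted p = 0.0116, with no overlap of the 2 groups, and all libraries given fulvestrant lay above the abemaciclib libraries. NARS1 read 258, 248 and 241 CPM with DMSO, 211, 206 and 217 with abemaciclib, 192, 181 and 215 with fulvestrant and 189.8, 202 and 209 with the combination. With abemaciclib it fell to 211 ± 5.45 CPM (-0.24 ± 0.08 (SE), adjusted p = 0.0177). YARS1, given in full below, was also lower in all 3 abemaciclib libraries than in all 3 DMSO libraries (-0.32 ± 0.10 (SE), adjusted p = 0.0159).

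Both mitochondrial genes that rose were among the most abundant of their class. IARS2 read 88.2, 87.2 and 89.3 CPM with DMSO, 101, 135 and 125 with abemaciclib, 78.8, 113 and 66.5 with fulvestrant and 77.5, 84.4 and 71.7 with the combination. The abemaciclib libraries were above the DMSO libraries (0.45 ± 0.16 (SE), adjusted p = 0.0344), but spread widely. HARS2 read 56.7, 50.6 and 45.9 CPM with DMSO, 68.2, 67.8 and 63.2 with abemaciclib, 52.4, 55.8 and 54.0 with fulvestrant and 44.3, 50.5 and 54.2 with the combination. Its rise was 0.39 ± 0.11 (SE), adjusted p = 0.00446, and the abemaciclib libraries stood above all other libraries. TARS2 had 84.8 ± 1.45 CPM with abemaciclib against 70.3 ± 9.99 with DMSO and did not pass the test (0.26 ± 0.11 (SE), adjusted p = 0.0663). It was called higher with upper-quartile factors, with no filter on low counts, in a fit of only those groups, and without DMSO replicate 2. With IARS2, HARS2 and TARS2 included, the mitochondrial sum was 496 ± 14.1 CPM against 446 ± 12.9 with DMSO, although the median mitochondrial gene had a slightly negative change. The cytosolic over mitochondrial ratio of sums was 5.59 ± 0.235 with abemaciclib and 6.59 ± 0.171 with DMSO, without overlap and with no test made on these sums. In all 14 alternative analyses of this comparison only KARS1 and HARS2 of the 8 stayed past the threshold; QARS1 missed it only without abemaciclib replicate 2 (adjusted p = 0.0513 by edgeR). IARS2 missed it without abemaciclib replicate 2 or 3 or any 1 DMSO library (adjusted p up to 0.114), LARS1 without abemaciclib replicate 3 or DMSO replicate 2, WARS1 without abemaciclib replicate 2 or 3, YARS1 without abemaciclib replicate 3 or DMSO replicate 1, and NARS1 with no filter on low counts and without abemaciclib replicate 1 or 2 or DMSO replicate 1. The count of 8 was 4 without abemaciclib replicate 2, 4 without abemaciclib replicate 3 and 5 without DMSO replicate 1. It was 8 with the mitochondrial genome's reads left out before scaling. In the same order, genes called overall numbered 3998, 4190, 4261 and 4850, against 4864 in the main fit.

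Fulvestrant, which removes the ER, lowered 17 of the 34 tested members and raised 1, together 52.9%, where 51% of all genes were called, 25.3% higher and 25.7% lower. In the cytosolic class 13 fell, 1 rose and 5 were not called, and in the mitochondrial class 4 fell, 0 rose and 11 were not called. The median log2 fold change was nearly equal in both classes, -0.37 for cytosolic and -0.38 for mitochondrial genes, beside 0.01 over all genes. The standard error differed: its median was 0.095 for cytosolic and 0.168 for mitochondrial genes, which had fewer counts. Of the 34 members, 31 had a negative change, 18 of 19 cytosolic and 13 of 15 mitochondrial.

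The tyrosyl enzyme YARS1 (chr1:32775237-32818031, minus strand) had the largest cytosolic decrease. It read 122, 105 and 110.4 CPM with DMSO, 94.8, 91.6 and 83.6 with abemaciclib, 50.4, 46.0 and 63.1 with fulvestrant and 62.6, 52.3 and 54.0 with the combination. Every fulvestrant library was under every DMSO and abemaciclib library, and the level was 2.10-fold lower (-1.07 ± 0.11 (SE), adjusted p = 4.19e-09). Both subunits of cytosolic phenylalanyl-tRNA synthetase fell together. The catalytic subunit FARSA read 139.5, 176 and 162 CPM with DMSO, 144, 136 and 149 with abemaciclib, 102, 80.4 and 103 with fulvestrant and 88.1, 97.8 and 108 with the combination (-0.74 ± 0.10 (SE), adjusted p = 8.41e-07 for fulvestrant). The other subunit, FARSB, read 74.8, 64.6 and 62.6 CPM with DMSO, 62.4, 57.4 and 58.6 with abemaciclib, 40.5, 31.9 and 39.9 with fulvestrant and 38.3, 44.5 and 44.3 with the combination (-0.84 ± 0.12 (SE), adjusted p = 8.01e-07). In neither did the fulvestrant or combination libraries overlap the DMSO libraries. FARS2, the single mitochondrial enzyme for phenylalanine, did not pass the test (-0.12 ± 0.15 (SE), adjusted p = 0.536), and the FARSA over FARS2 ratio was 7.12 ± 1.01 with DMSO and 4.62 ± 0.552 with fulvestrant.

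KARS1, with the values above, was 1.59-fold lower with fulvestrant (-0.67 ± 0.08 (SE), adjusted p = 8.62e-08). The glycyl enzyme GARS1 was 1.58-fold lower (-0.66 ± 0.08 (SE), adjusted p = 1.72e-07), at 120.2 ± 6.79 CPM against 190.1 ± 6.43. Both genes that serve the 2 compartments at once thus fell. CARS1, HARS1, RARS1, AARS1, NARS1, VARS1, MARS1 and EPRS1 fell by less, from -0.52 for CARS1 to -0.21 for EPRS1. MARS1 shares 412 of its last 500 bases with DDIT3 on the opposite strand; DDIT3 itself lay at 2.47 to 6.61 CPM and was not called in any comparison. QARS1 was the 1 gene that rose (0.27 ± 0.11 (SE), adjusted p = 0.0342), but it was not called with DESeq2, with no filter on low counts, or without DMSO replicate 2 or 3 or fulvestrant replicate 1 or 3 (adjusted p from 0.0233 to 0.11 over the alternatives).

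In the mitochondrial class SARS2, for serine (chr19:38915266-38930763, minus strand), fell the most. It read 9.50, 8.74 and 9.71 CPM with DMSO, 7.60, 11.0 and 7.83 with abemaciclib, 3.95, 3.67 and 4.79 with fulvestrant and 4.33, 3.52 and 5.24 with the combination. The fulvestrant libraries were all under the DMSO libraries (-1.15 ± 0.26 (SE), adjusted p = 0.000583), on 50 counts in all. Another protein-coding gene, ENSG00000269547, shares 346 of its last 500 bases on the same strand, so reads there may be uncertain. SARS1, its cytosolic counterpart, did not pass the test (-0.11 ± 0.09 (SE), adjusted p = 0.352), and the SARS1 over SARS2 ratio was 72.9 ± 3.17 with fulvestrant against 35.1 ± 2.98 with DMSO. WARS2 read 24.6, 21.1 and 19.2 CPM with DMSO, 20.6, 19.2 and 15.4 with abemaciclib, 18.0, 16.6 and 13.9 with fulvestrant and 14.4, 15.3 and 12.0 with the combination (-0.41 ± 0.17 (SE), adjusted p = 0.0431), and its fulvestrant libraries were under the DMSO libraries. EARS2, for glutamate, read 37.1, 43.9 and 34.3 CPM with DMSO, 43.8, 40.6 and 42.4 with abemaciclib, 29.9, 35.5 and 23.5 with fulvestrant and 27.9, 29.2 and 29.3 with the combination (-0.39 ± 0.14 (SE), adjusted p = 0.0203), with 1 fulvestrant library inside the DMSO range. AARS2, for alanine, read 40.4, 45.4 and 43.6 CPM with DMSO, 42.4, 41.1 and 40.2 with abemaciclib, 35.3, 29.1 and 35.3 with fulvestrant and 40.9, 33.7 and 34.95 with the combination (-0.38 ± 0.12 (SE), adjusted p = 0.011), with no overlap between fulvestrant and DMSO.

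Fulvestrant replicate 3 stood apart in several of these genes, with the highest SARS1 and the lowest IARS1 and MARS2 level of its group. Without it, fulvestrant lowered 15 cytosolic and 2 mitochondrial genes and raised 0, when 6162 of all genes were called in place of 6023. SARS1 and LARS1 were then among those lower (SARS1 log2 fold change -0.25, adjusted p = 0.00893 by edgeR), EARS2 and WARS2 were not, and the mitochondrial median was -0.24 in place of -0.38. Of the 18 calls, 13 held in all alternative analyses. Those that did not were QARS1 and 4 of the genes that fell. AARS2 was lost without DMSO replicate 2 or fulvestrant replicate 2, and EARS2 in a fit of only those groups and without DMSO replicate 2 or fulvestrant replicate 3. EPRS1 and WARS2 were also lost with DESeq2, among other settings, and were called in 7 and 6 of 14 alternatives.

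**Figure D2:**
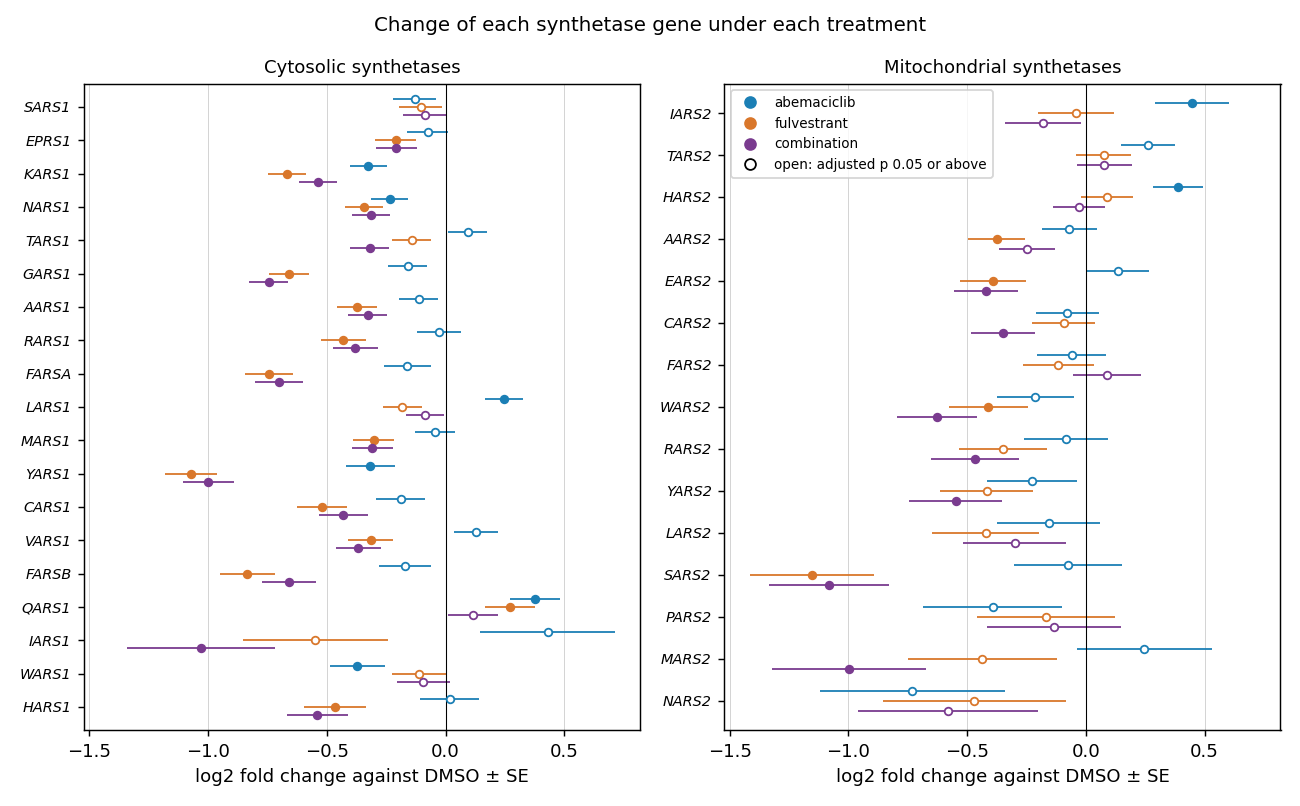
Change of each tested synthetase gene under each treatment relative to DMSO, as log2 fold change ± SE, with filled points for genes past an adjusted p of 0.05 and open points for the rest; the 3 treatments share the same 3 DMSO libraries. Blue abemaciclib points scatter on both sides of 0 from -0.73 (NARS2) to 0.45 (IARS2), whereas the fulvestrant and combination points lie left of 0 for 31 of 34 genes each.

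With both drugs, 22 of the 34 members (64.7%) were lower than with DMSO and 0 higher, where 55.2% of all genes were called, 27.7% higher and 27.5% lower. The 22 were 15 of 19 cytosolic genes (median -0.37) and 7 of 15 mitochondrial genes (median -0.35), beside a median of 0.01 over all genes. This comparison shares its DMSO libraries with those of the single drugs. YARS1 was 2.00-fold lower (-0.9996 ± 0.11 (SE), adjusted p = 8.87e-09), GARS1 1.68-fold lower (-0.75 ± 0.08 (SE), adjusted p = 1.57e-08) and SARS2 2.12-fold lower (-1.08 ± 0.25 (SE), adjusted p = 0.000665). IARS1 read 40.1, 52.3 and 55.8 CPM with DMSO, 56.2, 77.0 and 68.5 with abemaciclib, 36.6, 47.4 and 19.6 with fulvestrant and 24.1, 31.4 and 17.9 with the combination. It was 2.04-fold lower with the combination (-1.03 ± 0.31 (SE), adjusted p = 0.0193), and its libraries spread widely inside each treated group. MARS2, for methionine, was 2.00-fold lower (-0.9983 ± 0.33 (SE), adjusted p = 0.0109), at 3.15 ± 0.609 CPM against 6.30 ± 1.27. Not called in the cytosolic class were SARS1, LARS1, QARS1 and WARS1. Of the 22 calls, 15 held in all alternative analyses. IARS1 was not called without combination replicate 1 or 3 or DMSO replicate 2 or 3, and MARS2 was not called without DMSO replicate 3 (adjusted p up to 0.0632 and 0.0634). The other calls that did not hold throughout were EPRS1, CARS2, EARS2, RARS2 and YARS2, so that 2 of the 7 mitochondrial calls, SARS2 and WARS2, held in all.

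Adding fulvestrant to abemaciclib lowered 19 members (55.9%) and raised 0, where 33.5% of all genes were called, 15.9% higher and 17.7% lower. In the cytosolic class 14 of 19 were lower (median -0.33), and in the mitochondrial class 5 of 15 (median -0.32), beside 0.01 over all genes. IARS1 had the largest decrease (-1.46 ± 0.31 (SE), adjusted p = 0.00516), followed by MARS2 (-1.25 ± 0.32 (SE), adjusted p = 0.00304) and SARS2 (-1.01 ± 0.25 (SE), adjusted p = 0.00278). LARS1 (-0.33), HARS2 (-0.42) and IARS2 (-0.63), which rose with abemaciclib alone, had lower levels once fulvestrant was added; both comparisons use the same abemaciclib libraries, in which these genes were high. QARS1 (-0.26 ± 0.10 (SE), adjusted p = 0.0493) was called in 5 of 14 alternatives, and not with DESeq2, upper-quartile factors, no filter on low counts, the replicate block, or without any 1 abemaciclib library or combination replicate 1 or 2. Of the 19 calls, 15 held in all alternative analyses, and the others were QARS1, AARS1 (also lost with DESeq2 and under the replicate block), KARS1 and MARS1.

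Adding abemaciclib to fulvestrant changed 0 of the 34 members by edgeR and 0 by DESeq2, where 1.92% of all genes were called. At an unadjusted p under 0.05, edgeR gave 1 member and DESeq2 2. The cytosolic median was 0.02 and the mitochondrial median -0.11, beside 0.00 over all genes. Neither median kept its sign when 1 library was left out: the cytosolic one was 0.10 when fulvestrant replicate 3 was dropped, -0.0102 when combination replicate 3 was dropped and -0.0268 when fulvestrant replicate 2 was dropped, where the mitochondrial one was 0.043. The members called were 0 in each case. TARS1 came nearest (-0.18 ± 0.08 (SE), adjusted p = 0.405). KARS1 differed by 0.13 ± 0.08 (SE), adjusted p = 0.589, and YARS1 by 0.07 ± 0.11 (SE), adjusted p = 0.867.

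Whether abemaciclib acted differently with and without fulvestrant was tested by the interaction, the change with abemaciclib in the presence of fulvestrant minus that in its absence. It passed for 3 members (8.82%), where 21.1% of all genes were called, 9.49% higher and 11.6% lower. KARS1 fell with abemaciclib alone and had 0.13 on top of fulvestrant, an interaction of 0.45 ± 0.11 (SE), adjusted p = 0.005. For QARS1 it was -0.53 ± 0.15 (SE), adjusted p = 0.0102 and for HARS2 -0.51 ± 0.15 (SE), adjusted p = 0.0172, both of which rose with abemaciclib alone but had negative values on top of fulvestrant (-0.16 and -0.12). KARS1 and QARS1 held in all alternatives. HARS2 missed the threshold without DMSO replicate 3 (adjusted p = 0.0516). Without fulvestrant replicate 3, 12 members passed, when 3318 of all genes did in place of 2493: CARS1, KARS1, NARS1, SARS1, WARS1 and YARS1 with a positive and HARS2, IARS1, IARS2, MARS2, QARS1 and TARS1 with a negative interaction.

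**Figure D3:**
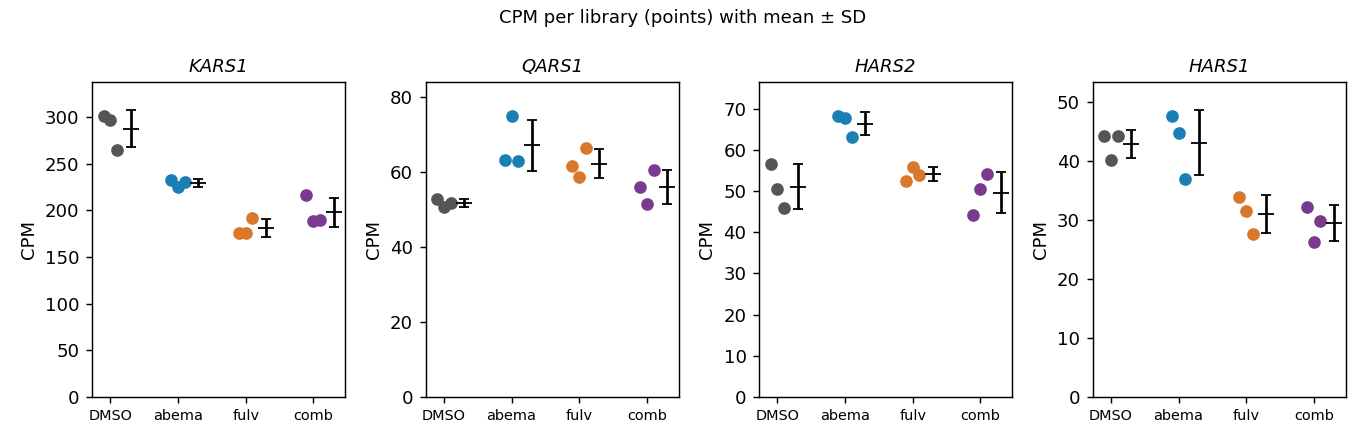
CPM per library of the 3 genes with an interaction and of HARS1, with points for libraries and bars for mean ± SD of 3, on axes that start at 0. KARS1 steps down from DMSO (288 ± 20.2) through abemaciclib to fulvestrant, QARS1 and HARS2 have their highest mean with abemaciclib, and HARS1 is lower in both groups given fulvestrant.

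In the head-to-head pair, HARS1 read 44.2, 40.1 and 44.2 CPM with DMSO, 47.6, 44.8 and 36.9 with abemaciclib, 33.8, 31.6 and 27.6 with fulvestrant and 32.2, 26.3 and 29.9 with the combination. It fell with fulvestrant (-0.47 ± 0.13 (SE), adjusted p = 0.00371) and with the combination (-0.54 ± 0.13 (SE), adjusted p = 0.000773), and was at 0.02 with abemaciclib, where HARS2 rose. HARS2, in turn, had 0.09 with fulvestrant and was not called there. The ratio of HARS2 to HARS1 was 1.28, 1.26 and 1.04 in the DMSO libraries, 1.43, 1.51 and 1.71 with abemaciclib, 1.55, 1.77 and 1.96 with fulvestrant and 1.37, 1.92 and 1.81 with the combination. All 9 treated libraries thus exceeded the highest DMSO library, with no test made on the ratio. WDR55, which overlaps the end of HARS1, rose with abemaciclib (0.53 ± 0.10 (SE), adjusted p = 0.000177) and had -0.05 with fulvestrant, and its part in the HARS1 counts was not tested. ZMAT2 overlaps 26 of the last 500 bases of HARS2 on the same strand and is more abundant, at 593 ± 56.3 CPM with DMSO, 610.2 ± 22.4 with abemaciclib, 704 ± 104 with fulvestrant and 681 ± 21.1 with the combination. Its log2 fold change was 0.04 ± 0.09 (SE), adjusted p = 0.742 with abemaciclib and 0.25 ± 0.09 (SE), adjusted p = 0.0236 with fulvestrant, and its part in the HARS2 counts and in the ratio was not tested.

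Summed over each class, the fulvestrant libraries held 2271 ± 117 CPM of cytosolic and 402 ± 28.7 CPM of mitochondrial transcripts, and the combination libraries 2279 ± 44.6 and 385 ± 17.6. All 6 libraries given fulvestrant lay under all 6 others in both sums. The ratio of sums was 5.69 ± 0.707 with fulvestrant, from 5.03 to 6.44, which reached the DMSO range, and 5.93 ± 0.215 with the combination, which did not.

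**Figure D4:**
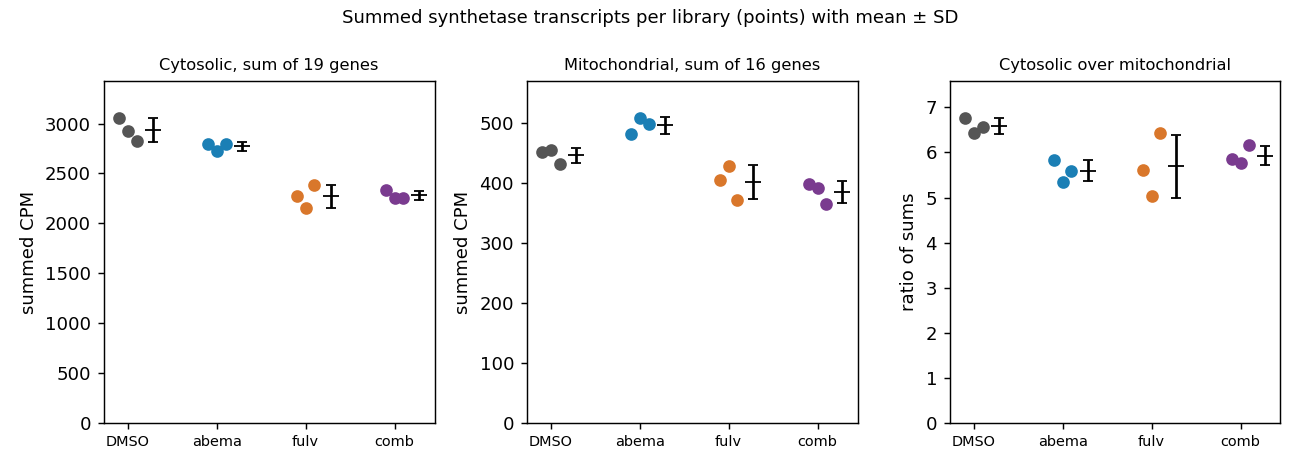
Summed CPM of the cytosolic genes, of the mitochondrial genes, and their ratio, with 1 point per library and bars for mean ± SD of 3; each axis starts at 0. The cytosolic sum is lower in the 6 libraries given fulvestrant (2155 to 2389 CPM) than in the 6 others (2722 to 3059), while the mitochondrial sum is highest with abemaciclib (481 to 508).

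The following counts with fulvestrant stand beside 25.7% lower, 25.3% higher and 51% called over all genes. Fulvestrant lowered 8 (44.4%) and raised 1 of the 18 tested class I enzymes (median -0.37) and lowered 9 (56.2%) of the 16 class II enzymes (median -0.37); the 2 classes differ in the fold of their catalytic domain. Of the 7 enzymes of the multi-synthetase complex, EPRS1, KARS1, MARS1 and RARS1 fell (57.1%), QARS1 rose, and IARS1 and LARS1 were not called. Of 12 members often listed as ATF4 targets, 7 fell (58.3%), 0 rose and 5 were not called (median -0.32). Members whose promoter window held the CARE letters and those whose window did not had these values in the cytosolic class with fulvestrant: medians of -0.37 over 7 genes, 5 of them lower (71.4%), and -0.43 over 9 genes, 6 of them lower (66.7%).

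Partners of the synthetases were followed as a listed group of scaffolds and other proteins of transfer RNA charging. Of 13 tested of 14 listed, abemaciclib changed 0, where 41.2% of all genes were called. Fulvestrant lowered 4 (30.8%, near the 25.7% of all genes) and raised 0 (25.3% of all genes), with a median of -0.10, and the combination lowered 5 (38.5%, against 27.5% of all genes) and raised 0 (27.7%). All 3 scaffolds of the multi-synthetase complex fell with fulvestrant, EEF1E1 the most (-0.91 ± 0.15 (SE), adjusted p = 1.59e-05), then AIMP1 (-0.30 ± 0.10 (SE), adjusted p = 0.0187) and AIMP2 (-0.30 ± 0.12 (SE), adjusted p = 0.0467). The AIMP2 libraries overlapped, at 61.1 to 74.0 CPM with DMSO and 46.5 to 65.7 with fulvestrant. Calls of partners were not followed through the alternative analyses. TRNT1, which adds the CCA end to transfer RNAs, also fell (-0.67 ± 0.18 (SE), adjusted p = 0.00318). QRSL1, GATB and GATC, the amidotransferase that makes mitochondrial glutaminyl-tRNA, were not called in any of the 3 comparisons with DMSO.

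Of the 16 listed genes of the ATF4 pathway, 13 were tested, and fulvestrant lowered 7 (53.8%, against 25.7% of all genes) and raised 2 (15.4%, against 25.3%), with a median of -0.43. Too low to be tested were ASNS (0 to 0.760 CPM), VLDLR (0 to 1.86 CPM) and PSAT1, which had 0 counts in every library. ATF4 itself was lower with abemaciclib (-0.42 ± 0.10 (SE), adjusted p = 0.00287), with fulvestrant (-0.43 ± 0.10 (SE), adjusted p = 0.00147) and with the combination (-0.39 ± 0.10 (SE), adjusted p = 0.00288). PHGDH, the first enzyme of serine synthesis, had the largest decrease, -2.12, -3.18 and -4.09 in the same order. It held 146, 194 and 197 counts with DMSO but 26, 7 and 20 with fulvestrant and 6, 14 and 13 with the combination. The sizes of its last 2 decreases are therefore uncertain. SHMT2 and MTHFD2 of mitochondrial one-carbon metabolism and the amino acid transporters SLC7A5 and SLC7A11 also fell with fulvestrant, from -1.06 to -2.46. The -2.46 was that of SLC7A11, which rested on 3, 1 and 11 counts in the fulvestrant libraries, so its size is uncertain. DDIT4 and SESN2, which restrain mTORC1, rose (1.76 and 0.82). CHAC1, which degrades glutathione, rose with abemaciclib (0.89 ± 0.16 (SE), adjusted p = 8.08e-05) and had 0.18 with fulvestrant. The genes of this list thus did not all move in 1 direction.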

How the data were processed

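Transcripts were measured in 12 libraries by 3′ RNA sequencing (QuantSeq FWD). The deposited values are raw counts of reads for each gene symbol. According to the methods of the study, trimmed reads were aligned to hg38 with STAR and counted with featureCounts 2.0.1 (per the labels) on GENCODE v35. Molecular identifiers and the strand setting are not given in the sources used here. Of 60656 rows, 44 had no gene name and 0 reads and were left out.

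Counts were tested in R 4.3.3 with edgeR 4.0.16: genes passing filterByExpr (minimum count 10, minimum total 15) were kept, library sizes were scaled by TMM, and 1 robust quasi-likelihood model with 4 group means was fitted to all 12 libraries. P values were adjusted over all 11803 genes by Benjamini-Hochberg, with a threshold of 0.05. A log2 fold change is the first-named group minus the second. Levels are CPM on TMM-scaled library sizes, as mean ± SD. DESeq2 1.42.0, the study's tool, other scalings and filters, a replicate block, only the groups compared, and leaving out each replicate were the alternatives. The script was tested on simulated data. Replicate numbers did not pair the libraries. No 2 libraries were alike within sampling noise. P values measure the spread between the deposited replicates.

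Values for all 12 libraries are given for up to 4 genes per class and direction past the threshold with the largest change against DMSO under a single drug, and for HARS1 and HARS2; IARS1, MARS2 and SARS1 were singled out after their values were seen. The members and all lists were chosen with earlier results of these data known. Promoters came from RefSeq tables (GRCh38.p14), gene positions and overlaps from GENCODE v44, a later release than the counts used.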

Additional observations from a re-analysis of the deposited data

Results flagged for a closer look

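The change with abemaciclib differed between cells with and without fulvestrant, by edgeR's interaction test, for KARS1 (log2 difference 0.45, adjusted p = 0.005), QARS1 (-0.53, adjusted p = 0.0102) and HARS2 (-0.51, adjusted p = 0.0172). These 3 were 8.82% of the 34 tested members, where 21.1% of all genes were called. HARS2 missed the threshold without DMSO replicate 3. For KARS1 the change was -0.32 without and 0.13 with fulvestrant, for QARS1 0.38 and -0.16, and for HARS2 0.39 and -0.12, where none of the 3 changes with fulvestrant present passed the test on its own.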

How the results depend on the processing

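No member changed direction past the threshold under any alternative. With 1 library left out in turn, members called numbered 4 to 7 for abemaciclib against DMSO and 2 to 12 for the interaction. The 12 came without fulvestrant replicate 3, and DESeq2 gave 5. Genes called overall in the fits with 1 library left out numbered 3998 to 4365 and 1982 to 3318 in the same order. Over the same fits the cytosolic median log2 fold change was -0.0268 to 0.10 for the combination against fulvestrant and 0.0535 to 0.16 for the interaction. The mitochondrial median was -0.0891 to 0.043 for the combination against fulvestrant, -0.39 to -0.23 for the combination against abemaciclib and -0.39 to -0.24 for fulvestrant against DMSO, -0.1235 to -0.0309 for abemaciclib against DMSO and -0.0991 to 0.0756 for the interaction. The cause of these shifts was not tested. For the combination against fulvestrant, genes called overall numbered 227, but 588 without fulvestrant replicate 3, 125 in a fit of only those groups and 91 with at least 10 counts in every library; members called stayed at 0. The interaction in a fit of only the groups compared was not run, since it needs all 4.

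With the replicate block the members called were 8, 18, 22, 18, 0 and 4 for abemaciclib, fulvestrant and the combination against DMSO, the combination against abemaciclib and against fulvestrant, and the interaction. In the same order, genes called overall numbered 4799, 5978, 6472, 3886, 203 and 2438 with the block. In the main fit they numbered 4864, 6023, 6519, 3959, 227 and 2493. Same-numbered libraries of different groups correlated at -0.215 to 0.119 in their deviations, and differently numbered ones at -0.208 to 0.301. The numbers were therefore taken as names only. The highest value was between DMSO replicate 1 and fulvestrant replicate 3, and its cause was not tested. Depth limits the mitochondrial genes most: NARS2 held 49 counts over the DMSO libraries.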
